A study of Mus musculus with 19 samples.

Results

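The 170 probes described here are the bright ORB-coded probes of a miRNA array that are absent from the authors' deposited table of processed values. A probe was taken when its code began with ORB, the authors' table did not list it, and its mean intensity over the 4 control arrays (foreground minus local background, averaged over 3 spots) was 1000 or more. They were thus chosen by measured control values, and their control levels are given as a description. They make up 9.07% of the 1875 ORB-coded probes outside that table, among 2274 ORB-coded probes and 3432 probe identifiers in all. Of the 250 ORB-coded probes that bright in control, 68% lay outside the table and 80 lay in it. The lowest levels taken were 1026 for ORB_0511336, 1065 for ORB_1210133 and 1067 for ORB_1210457. The highest not taken were 995 for ORB_1112305, 992 for ORB_1112036 and 980 for ORB_0510203.

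The series measured small RNA from right hippocampi of C57BL/6 mice, adult males, on 19 arrays in 5 groups. Control mice (n = 4) were given vehicle intranasally, 5 µL in each nostril, on alternate days over 3 days. On that schedule the siGSK3b mice received 10 µg of siRNA against GSK3beta (n = 4), and L803mts mice received 60 µg of L803mts, a peptide that inhibits GSK3 (n = 4). The labels of replicate 4 give 11 and 61 µg in these groups, and the protocol text spells the peptide L808mts. The lithium mice (n = 4) ate lithium chow for 4 weeks, whose strength is 0.2% by the sample labels but 2% by the protocol text. The ketamine mice (n = 3) had 10 mg/kg of ketamine intraperitoneally and were taken at 24 h. Lithium and ketamine mice have no control given by their own route among the samples used here. Separate mice are not stated for the replicates, and the p-values therefore measure only how these arrays spread, which may be technical.

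A miRNA is a short RNA that guides the Argonaute proteins to matching messenger RNAs, whose translation or stability it lowers. GSK3 is a serine/threonine kinase that is active in resting cells and is switched off by growth factor and Wnt signals. Lithium, a mood stabiliser, inhibits GSK3 directly, and ketamine, an antagonist of the NMDA receptor with rapid antidepressant action, is known to raise its inhibitory phosphorylation in mouse hippocampus. The array files name these probes by code only. Of the 170 codes, 0 matched the mouse gene table and 0 matched the table of mouse miRNAs used here. No miRNA name, role or sequence is therefore attached to a probe, and neither the knockdown of Gsk3b nor the labelled tissue could be checked with them.

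Each probe had 3 spots in 1 block, and all 170 were above background on all 19 arrays. Of their 510 spots per array, 1 was flagged bad in siGSK3b replicate 1 and 2 in ketamine replicate 1. L803mts replicate 2 stood apart. It was the dimmest array, with a median foreground intensity of 115 against 146 to 190 in the others, and 128 of the 170 probes reached 1000 on it against 153 to 168 elsewhere. It also lay alone on a later slide, whereas each other slide carried analysed arrays of 1 group only. The slide and the treatment cannot be told apart in any treated group, since the L803mts slides held no analysed control arrays either. For some probes the L803mts results are given with and without replicate 2.

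In control the probes spanned the range from the limit of the rule to the ceiling of the scanner. Their median control intensity was 3899, with quartiles of 1797 and 13521. Between 1000 and 2000 there were 52 probes, between 2000 and 5000 there were 42, between 5000 and 10000 there were 22, between 10000 and 60000 there were 34, and at 60000 or more there were 20. The 5 brightest were ORB_1112368, ORB_0511546, ORB_1008006, ORB_0511110 and ORB_1112342, at 65434 to 65437. These values are set by the scanner, whose foreground reading has a fixed ceiling before the background is subtracted.

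**Figure D1:**
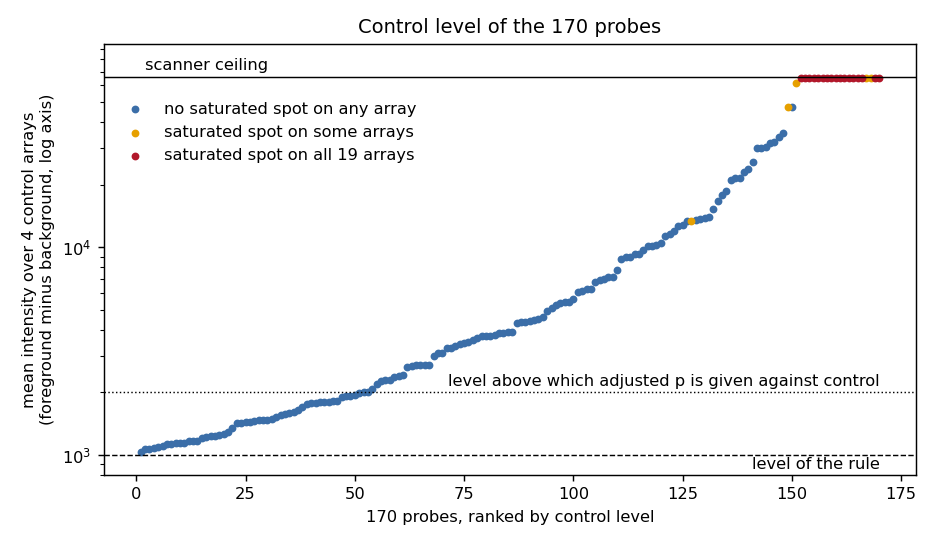
Mean background-subtracted intensity over the 4 control arrays (log axis) for the 170 probes in rank order. The 20 probes at 60000 or more form a plateau under the scanner ceiling, and 17 probes (red) had a saturated spot on all 19 arrays.

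The brightest probes could show little or no difference, since they read at or near the ceiling on most arrays. At least 1 spot at the ceiling was present on all 19 arrays for 17 probes and on none for 148. ORB_0511546, among the 17, still read 63140 on L803mts replicate 2. ORB_0511110 and ORB_1008006 were saturated on 18 arrays and fell below the ceiling on L803mts replicate 2 alone, where they read 59619 and 46097. ORB_1112035 was saturated on 9 arrays. ORB_1210051 was saturated on 3 arrays (lithium replicate 1 and ketamine replicates 1 and 2), and ORB_1210479 on 1 array (lithium replicate 3). The 5 probes with the smallest SD over the 19 arrays included ORB_1112368, ORB_1112342 and ORB_0608009. All 5 had a saturated spot on every array, so that their constancy is largely that of the ceiling. Among probes with no saturated spot, ORB_1112344 varied least. Its normalized log2 intensity was 13.42 ± 0.06 (SD, n = 4) in control, 13.57 ± 0.08 in siGSK3b (n = 4), 13.53 ± 0.07 in L803mts (n = 4), 13.58 ± 0.05 in lithium (n = 4) and 13.62 ± 0.03 in ketamine (n = 3). ORB_1112269, ORB_1210380, ORB_1112107 and ORB_0510095 followed it.

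The probes as a whole held a similar part of the signal on every array. They carried 27.8% to 30.1% of each array's summed background-subtracted intensity. Among them were the 17 probes with a saturated spot on all 19 arrays, and 46 of all probes tested had such spots. Readings at the ceiling cannot vary, and the share without them is not given. What they do to this share was not tested. The lithium arrays, at 29.4% to 30.1%, lay just above the ketamine arrays, at 29.0% to 29.3%, and all other pairs of groups overlapped. Of the 170, the mean intensity was 1000 or more for 165 in siGSK3b, 160 in L803mts, 165 in lithium and 160 in ketamine, while the control count of 170 was fixed by the choice. On the normalized log2 scale the median difference from control over the 170 probes was -0.0030 in siGSK3b, -0.0030 in L803mts, 0.00019 in lithium and 0.026 in ketamine. Over all 3421 probes tested it was -0.0047, 0.0052, 0.0071 and 0.0059. The sign of the members' median depended on the scaling. With median scaling it was -0.083, -0.051, -0.031 and -0.14 in the same order, and with cyclic loess it was 0.037, 0.051, 0.010 and 0.072. In such whole-tissue RNA, fewer cells of a type and less of an RNA per cell cannot be told apart.

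The first comparisons asked which of these probes differed from control under each treatment. A probe was called when its adjusted p in limma was under 0.05, with the adjustment over the 3421 probes tested. Because control levels chose the probes, an adjusted p against control is printed only for the 118 probes with a control mean of 2000 or more, and the counts are not read against the background. In siGSK3b 3 of the 170 were called higher (background over all probes 0.117%) and 0 lower (0%). At an unadjusted p under 0.05 in limma, 29 members (17.1%) and 4.91% of all probes were higher there. Those lower were 30 members (17.6%) and 6.58% of all probes. In L803mts 8 were called higher (0.614%) and 12 lower (1.87%). In lithium 6 were called higher (1.02%) and 4 lower (1.32%). In ketamine 9 were called higher (1.34%) and 8 lower (2.05%). With median scaling the split was 3 higher and 12 lower in L803mts, and 2 higher and 9 lower in ketamine. Restricted to the 118 brighter probes, the calls numbered 2, 15, 6 and 11. All 4 comparisons share the same control arrays, so a difference seen in several of them is not repeated evidence. Of the 170 probes, 139 were called in no treatment, 21 in 1, 3 in 2, 5 in 3 and 2 in all 4, and 0 were called in opposite directions. This tally includes calls of probes with a control mean under 2000, which are not read as tests. Of the 5 called in 3, only ORB_1008009 had a control mean of 2000 or more.

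**Figure D2:**
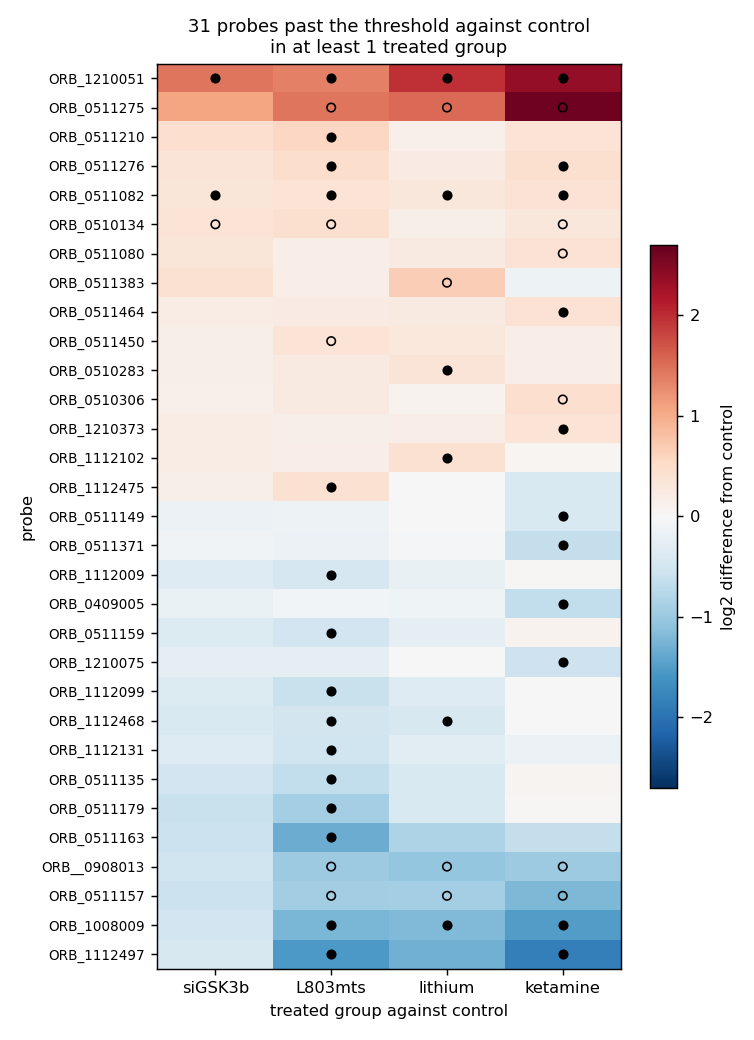
Log2 difference from control (colour) of the 31 probes called in at least 1 treated group. Filled circles mark calls of probes with a control mean of 2000 or more and open circles those of dimmer probes, and ORB_1210051 and ORB_0511082 have a filled circle in all 4 columns.

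ORB_1210051 rose in all 4 treated groups. Its intensity was 13812, 15032, 11048 and 13715 in control, 23568, 35911, 35021 and 35228 with siGSK3b, and 24227, 33799, 33583 and 29386 in L803mts. It was 61993, 55769, 35518 and 61473 in lithium and 65412, 65434 and 58985 in ketamine. No treated array overlapped the control arrays, and ketamine lay at or near the ceiling. On the normalized log2 scale the differences were 1.44 (SE 0.26, adjusted p = 0.0327) in siGSK3b, 1.36 (SE 0.26, adjusted p = 0.00887) in L803mts, 1.98 (SE 0.26, adjusted p = 0.000883) in lithium and 2.37 (SE 0.28, adjusted p = 0.000114) in ketamine. Saturated spots on 2 of 3 ketamine arrays and 1 of 4 lithium arrays cap both of the latter differences, and comparisons among the treated groups are not read for this probe. The siGSK3b call was lost when control replicate 2, 3 or 4 or siGSK3b replicate 2, 3 or 4 was left out (adjusted p 0.0574 to 0.153), and with array position as a block (adjusted p = 0.0783), plain background subtraction or another moderation. In L803mts the difference was 1.13 without replicate 2 (adjusted p = 0.0298), and the call was lost in a fit of only the groups compared (adjusted p = 0.0551).

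ORB_0511275 showed the widest measured range of group means, from 10.61 ± 0.21 in control to 13.24 ± 0.18 in ketamine, although the range of ORB_1210051, the next in order, is capped by the scanner ceiling. Its control mean of 1614 lies near the limit of the rule, so its differences are described without a test. The log2 intensity was 10.48, 10.43, 10.89 and 10.65 in control, 11.49, 11.84, 11.75 and 11.59 with siGSK3b, and 11.15, 13.55, 11.87 and 11.67 in L803mts. It was 12.75, 12.08, 11.71 and 12.08 in lithium and 13.10, 13.45 and 13.18 in ketamine. The control arrays lay below all 15 treated arrays. L803mts replicate 2 lay far above the other L803mts arrays, and the L803mts difference of 1.45 was 0.95 without it.

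ORB_0511082 was the other probe called in all 4 groups, with small and even differences. Its log2 intensity was 12.06, 12.004, 11.94 and 12.05 in control. The treated arrays all lay between 12.25 and 12.50, above every control array. The rise was 0.34 (SE 0.06, adjusted p = 0.0219) in siGSK3b, 0.36 (adjusted p = 0.00197) in L803mts, 0.30 (adjusted p = 0.00909) in lithium and 0.40 (adjusted p = 0.0012) in ketamine, or 1.23-fold to 1.32-fold. These small rises depended on the scaling. With median scaling the differences were 0.24 in siGSK3b and 0.20 in ketamine, with adjusted p of 0.514 and 0.568. The siGSK3b call also ended in 7 of the 8 fits with 1 array removed, all but that without control replicate 1 (adjusted p 0.0541 to 0.116).

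**Figure D3:**
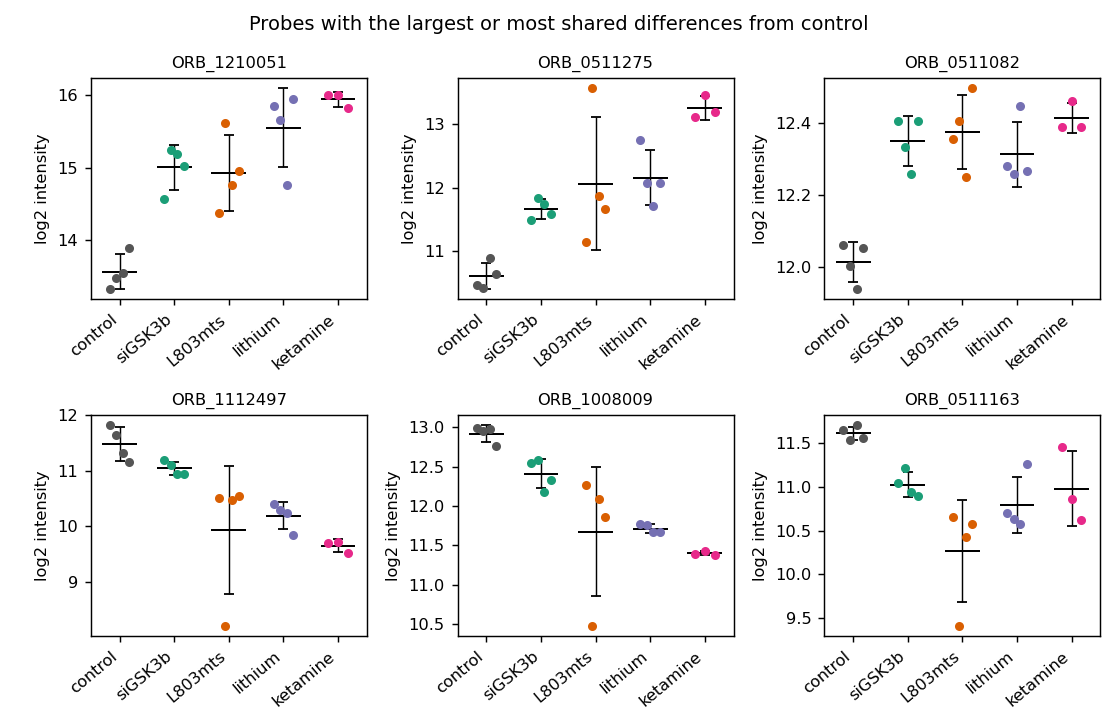
Normalized log2 intensity by group for 6 probes, with 1 point per array and the group mean ± SD in black (n = 4, and n = 3 in ketamine). ORB_1210051, ORB_0511275 and ORB_0511082 lay above control on every treated array, and the isolated low L803mts point of ORB_1112497, ORB_1008009 and ORB_0511163 is replicate 2.

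Among the probes that fell, ORB_1112497 and ORB_1008009 had the largest ketamine differences. ORB_1112497 read 11.82, 11.65, 11.32 and 11.16 in control, 11.19, 11.10, 10.95 and 10.94 with siGSK3b, and 10.51, 8.20, 10.47 and 10.54 in L803mts. It read 10.40, 10.29, 10.24 and 9.85 in lithium and 9.71, 9.72 and 9.52 in ketamine. L803mts, lithium and ketamine did not overlap control, whereas siGSK3b did. It fell by 1.56 (SE 0.37, adjusted p = 0.0341) in L803mts and by 1.84 (SE 0.40, adjusted p = 0.015) in ketamine. In lithium it was 1.29 below control (adjusted p = 0.081) and in siGSK3b 0.44 below (adjusted p = 0.763), neither past the threshold. Without L803mts replicate 2 the L803mts fall was 0.98 (adjusted p = 0.00121). Removing control replicate 1, 2 or 3 ended the L803mts call (adjusted p 0.0628 to 0.0975), as did 7 of 13 other settings, array position as a block (adjusted p = 0.105) and a fit of only the groups compared (adjusted p = 0.258) among them. The ketamine call was lost without any 1 of its 3 arrays (adjusted p 0.0510 to 0.0669).

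ORB_1008009 read 12.99, 12.94, 12.98 and 12.76 in control and 12.54, 12.59, 12.18 and 12.34 with siGSK3b. It read 12.27, 10.48, 12.09 and 11.86 in L803mts, 11.77, 11.76, 11.67 and 11.67 in lithium, and 11.40, 11.43 and 11.38 in ketamine. All 4 treated groups lay wholly below control, and ketamine lay wholly below lithium. It fell by 1.24 (SE 0.26, adjusted p = 0.0127) in L803mts, by 1.20 (adjusted p = 0.0187) in lithium and by 1.51 (SE 0.28, adjusted p = 0.00372) in ketamine, and was 0.51 lower in siGSK3b (adjusted p = 0.479). Without L803mts replicate 2 the L803mts fall was 0.85 (adjusted p = 0.000154). The L803mts call was lost with array position as a block (adjusted p = 0.0611), with spots flagged as not found left out (adjusted p = 0.124) and in a fit of only the groups compared (adjusted p = 0.206). The lithium call was lost without control replicate 2 or lithium replicate 3 (adjusted p of 0.0566 and 0.0558) and with not-found spots left out (adjusted p = 0.0537).

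ORB_0511157 and ORB__0908013, with control means of 1973 and 1236, had lower values in all treated groups and are described without a test. ORB_0511157 read 10.68, 10.89, 10.67 and 10.54 in control, 10.34, 10.04, 9.99 and 10.07 with siGSK3b, 10.14, 9.30, 9.74 and 9.81 in L803mts, 9.79, 9.72, 9.90 and 9.68 in lithium, and 9.48, 9.47 and 9.47 in ketamine. ORB__0908013 ranged over 9.90 to 10.23 in control, 9.33 to 9.74 with siGSK3b, 8.55 to 9.35 with L803mts, 8.95 to 9.22 with lithium and 9.02 to 9.22 with ketamine. For both probes no treated array reached the lowest control array. Without L803mts replicate 2 their L803mts differences were -0.80 and -0.78, against -0.95 and -0.97 with it.

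Some of the probes fell in the order of the slides. By serial number the slides carried control, siGSK3b, L803mts replicates 1, 3 and 4, lithium, ketamine and L803mts replicate 2. Of the 148 probes with no saturated spot, 5 (3.38%) fell at every step of that order, namely ORB_0511157, ORB_1008009, ORB_1008010, ORB_1112017 and ORB_1112497. Over all 3349 probes with no saturated spot the share was 1.85%. Only ORB_0511237 (0.676%) rose at every step, against 0.567% over all such probes. The order opens with the control slide, whose values chose the probes. Their shares are therefore not read against those over all probes. With the serial number as a covariate, all 6 named L803mts calls of probes with a control mean of 2000 or more were lost, rises and falls alike. The L803mts differences were then -0.41 for ORB_1112497, -0.44 for ORB_1008009 and -0.78 for ORB_0511163 (adjusted p of 0.417, 0.155 and 0.165). Those of the rising probes were 0.90 for ORB_1210051, 0.49 for ORB_0511210 and 0.44 for ORB_0511276 (adjusted p of 0.255, 0.22 and 0.053), and ORB_0511275 went from 1.45 to 0.45. In ketamine the difference of ORB_1112497 was -0.69 (adjusted p = 0.0754), while ORB_1008009 kept its call at -0.71 (adjusted p = 0.00639). The slope of that covariate rests on L803mts replicate 2 alone, since each other group lay on 1 slide. Slide order cannot be told apart from the treatments.

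The remaining calls in L803mts were mostly falls. ORB_0511163 read 11.65, 11.54, 11.71 and 11.56 in control and 10.66, 9.41, 10.42 and 10.58 in L803mts, and fell by 1.35 (SE 0.23, adjusted p = 0.00451), or by 1.06 without replicate 2 (adjusted p = 0.00316). This call was lost with not-found spots left out (adjusted p = 0.0892) and in a fit of only the groups compared (adjusted p = 0.0561). Its lithium and ketamine arrays, at 10.58 to 11.26 and 10.62 to 11.46, lay below control as well but the differences were not past the threshold (adjusted p of 0.0776 and 0.232). ORB_0511179 fell by 0.92 (adjusted p = 0.0182), ORB_0511135 by 0.66 (adjusted p = 0.00917) and ORB_0511159 by 0.51 (adjusted p = 0.00907). Those 3 lay in block 3 of the array and on the same source plate. ORB_1112099, ORB_1112131, ORB_1112468 and ORB_1112009 fell by 0.45 to 0.59. Among probes with a control mean of 2000 or more, the rises besides ORB_1210051 and ORB_0511082 were ORB_0511210, by 0.56 (adjusted p = 0.0101), ORB_0511276, by 0.48 (adjusted p = 0.00134), and ORB_1112475, by 0.41 (adjusted p = 0.0435, with arrays that overlapped control). The dimmer ORB_0510134 and ORB_0511450, described without a test, were 0.43 and 0.36 above control. With median scaling ORB_0511210 and ORB_0511276 were no longer called (0.43 and 0.33, adjusted p of 0.184 and 0.254), nor with not-found spots left out (adjusted p of 0.0508 and 0.0582).

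The remaining calls in lithium and ketamine, among probes with a control mean of 2000 or more, were smaller. In lithium ORB_1112102 rose by 0.42 (adjusted p = 0.00862) and ORB_0510283 by 0.35 (adjusted p = 0.013). Neither was called with median scaling (0.32 and 0.27, adjusted p of 0.519 and 0.703) or with not-found spots left out (0.21 and 0.14, adjusted p of 0.433 and 0.602). ORB_1112468, also called in L803mts, fell by 0.43 (adjusted p = 0.0447) in lithium, a call that was lost in 7 of 8 fits leaving out 1 array, all but that without lithium replicate 4 (adjusted p 0.0638 to 0.155). In ketamine ORB_0511276, called in L803mts too, rose by 0.44 (adjusted p = 0.00214), ORB_0511464 by 0.39 (adjusted p = 0.00428) and ORB_1210373 by 0.37 (adjusted p = 0.0255). ORB_0511276 was 0.20 above control in ketamine with median scaling (adjusted p = 0.577) and 0.26 with not-found spots left out (adjusted p = 0.207). ORB_0511371 fell by 0.65 (adjusted p = 0.0099), ORB_1210075 by 0.56 (adjusted p = 0.00554), ORB_0409005 by 0.65 (adjusted p = 0.0421) and ORB_0511149 by 0.42 (adjusted p = 0.0295). The call of ORB_0409005 was lost in 6 of 7 fits leaving out 1 array, all but that without control replicate 1 (adjusted p 0.083 to 0.138). Whether any of these effects was limited to 1 treatment is answered only by the comparisons between treated groups.

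Those 6 differences are taken between treated groups, and the control arrays that chose the probes enter them through the shared normalization and estimate of spread. L803mts and siGSK3b, given by the same route and schedule, differed in 0 of the 170 probes and 0% of all probes in limma, with 17 members (10%) and 8.68% of all probes at an unadjusted p under 0.05. Lithium and siGSK3b differed in 0 members (0.0585% of all probes). At an unadjusted p under 0.05 in limma there were 39 members (22.9%) and 11.4% of all probes. Lithium and L803mts likewise differed in 0 members (0% of all probes), with 27 members (15.9%) and 8.68% of all probes at an unadjusted p under 0.05. Ketamine differed from siGSK3b in 1 member (0.438%), with 49 members (28.8%) and 12.2% of all probes at an unadjusted p under 0.05 in limma. It was above L803mts in 7 members (0.994%) and below it in 3 (0.292%), or 0 and 1 with median scaling. It was above lithium in 1 member (0.0877%) and below it in 6 (0.497%). The F test over the 4 treated groups called 2 members, ORB_1112475 (adjusted p = 0.0155) and ORB_0511306 (adjusted p = 0.0306), against 0.263% of all probes. When only the 2 groups compared were processed and fitted, with no control arrays, ketamine differed from L803mts and from lithium in 0 members. It differed from siGSK3b in 9. Over all probes, these fits called 0 against L803mts, 1 against lithium and 48 against siGSK3b. The comparisons among the treated groups share arrays with each other, and ketamine again lies on a slide of its own.

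ORB_1112475 was lowest in ketamine. It read 13.14, 13.18, 13.22 and 13.14 in siGSK3b, 13.41, 13.71, 13.09 and 13.43 in L803mts, 12.96, 12.999, 12.92 and 13.07 in lithium, and 12.50, 12.58 and 12.67 in ketamine. The ketamine arrays lay below all 16 other arrays, control included, where the lowest was 12.87. It was lower in ketamine than in L803mts by 0.82 (SE 0.11, adjusted p = 0.00415) and than in siGSK3b by 0.58 (SE 0.11, adjusted p = 0.0456). Against lithium the adjusted p was 0.113. Without L803mts replicate 2 the first difference was -0.72 (adjusted p = 0.00246), and the call was lost without ketamine replicate 1 (adjusted p = 0.0613) and in the fit of only the groups compared (-0.84, adjusted p = 0.13). The siGSK3b difference was lost in 6 of 7 fits leaving out 1 array, all but that without ketamine replicate 3 (adjusted p 0.0687 to 0.187).

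ORB_0511306 was highest in lithium and lowest in ketamine. It read 13.97, 13.84, 14.19 and 14.02 in lithium, 14.08, 13.66, 13.78 and 13.82 in L803mts, and 13.40, 13.31 and 13.26 in ketamine. Ketamine did not overlap either group. It was lower in ketamine than in lithium by 0.68 (SE 0.10, adjusted p = 0.0111) and than in L803mts by 0.51 (SE 0.10, adjusted p = 0.0381). The lithium difference was lost without lithium replicate 3 or ketamine replicate 2 (adjusted p of 0.0523 and 0.0856). The L803mts difference was lost without L803mts replicate 1 or 4 or any ketamine array (adjusted p 0.0672 to 0.152).

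ORB_1112149 went the other way. It read 14.06, 14.37 and 14.16 in ketamine against 13.51 to 13.75 in lithium and 13.51 to 13.78 in L803mts, with no overlap. The differences were 0.57 over lithium (adjusted p = 0.0429) and 0.51 over L803mts (adjusted p = 0.0427). The lithium call was lost in 5 of 7 fits, those without lithium replicate 1 or 3 or any ketamine array, and the L803mts call in 6 of 7, all but that without L803mts replicate 2. The other calls of ketamine over L803mts included ORB_0511179 at 0.94, ORB_0511135 at 0.73, ORB__0908021_3 at 0.63 and ORB_0511159 at 0.61 (adjusted p 0.0288 to 0.0427). ORB_0511179 read 12.82, 12.32 and 11.82 in ketamine and 11.35, 11.29, 11.44 and 11.43 in L803mts, so the ketamine arrays differed among themselves by as much as the groups did. All 4 of these calls were lost without ketamine replicate 1 or 2 and without L803mts replicate 1 or 4 (adjusted p 0.0592 to 0.204). Below lithium in ketamine, besides ORB_0511306, lay ORB_0511383 at -0.79, ORB_0511371 at -0.63, ORB_1210718 at -0.61, ORB_1210075 at -0.57 and ORB_0511158 at -0.54 (adjusted p 0.0386 to 0.0468). ORB_0511383 lost its call without any 1 of the 7 arrays compared (adjusted p 0.0591 to 0.212).

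**Figure D4:**
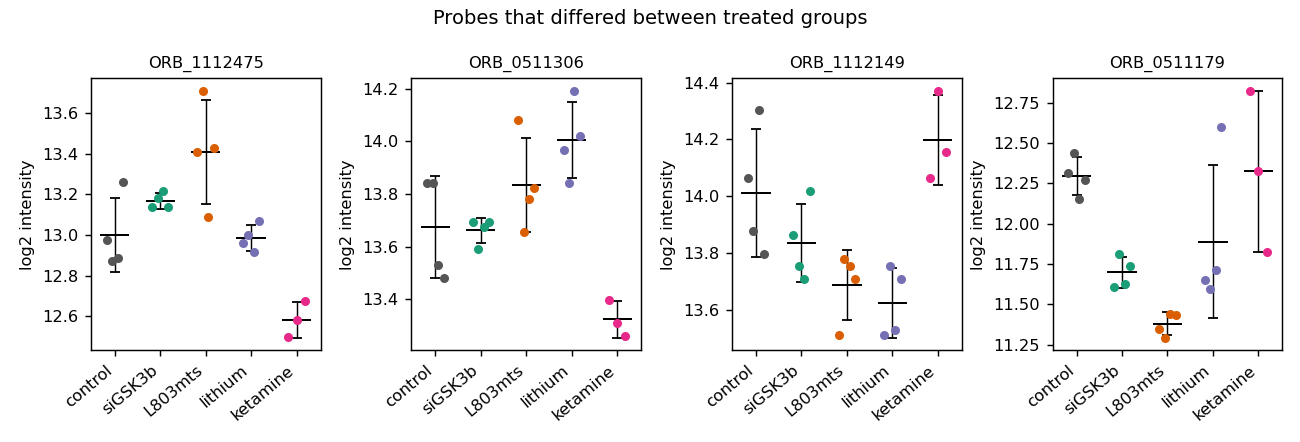
Normalized log2 intensity by group for 4 probes called between treated groups, with 1 point per array and the mean ± SD in black (n = 4, and n = 3 in ketamine). Ketamine lay below every other array for ORB_1112475 and ORB_0511306, and spread over 1 log2 unit for ORB_0511179.

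Several probes varied widely within groups. ORB_0510314 had group means of 9.97 ± 1.17 in control, 12.01 ± 1.01 in siGSK3b, 11.44 ± 0.45 in L803mts, 10.48 ± 1.01 in lithium and 11.10 ± 0.16 in ketamine, and was called in no comparison. The control arrays read 9.30, 9.08, 9.86 and 11.65 and the siGSK3b arrays 11.68, 12.24, 13.26 and 10.86. The fourth control array thus lay among the siGSK3b arrays. ORB_0511338, with a range of group means of 1.76, was called in none either. The within-group SD exceeded 0.5 for 8 of the 170 probes (4.71%), against 1.26% of all probes tested. It did so for 3 of the 80 ORB-coded probes of the authors' table that were as bright in control (3.75%). Of 96 equally bright number-coded probes outside that table, 2 did so (2.08%).

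The array-to-array variation was shared by sets of probes. Each set was collected after the values were seen, from probes with no saturated spot whose deviations from their group means over the 19 arrays correlated with a lead probe at 0.8 or more, and it is a description without a test. The arrays behind such a correlation share each probe's normalization. The first set had 7 probes, ORB_0510314 with ORB_0511338, ORB_1112029, ORB_1112265, ORB_1210335, ORB_0511333 and ORB_0511244 (r of 0.856 to 0.983, and 0.822 to 0.978 without control replicate 4). They lay in 6 of the 8 blocks and on 5 source plates. Their median deviation from each probe's mean was 1.56 in siGSK3b replicate 3, where it was highest, and -0.97 in lithium replicate 3. It was -0.82, -0.74 and -0.65 in control replicates 1 to 3 and 0.57 in control replicate 4. None of the 7 was called against control (0 of 7).

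The second set had ORB_1112497 with ORB_1008010, ORB_1008009, ORB__0908013 and ORB_1210457 (r of 0.845 to 0.977), and it rested on 1 array. Its median deviation was -1.54 in L803mts replicate 2 and between -0.43 and 0.82 on all other arrays, and r was 0.441 to 0.776 without that array. The third had 11 probes led by ORB_1112324 and included ORB_0511179, ORB_0511135 and ORB_0511159 (r of 0.802 to 0.951, and 0.624 to 0.911 without lithium replicate 4). Its median deviation was highest in ketamine replicate 1, at 0.68, and in lithium replicate 4 and ketamine replicate 2, at 0.35 and 0.34. It ran from -0.31 to -0.20 in L803mts. Without ketamine replicate 1 the differences of ketamine over L803mts were 0.69 for ORB_0511179, 0.59 for ORB_0511135 and 0.49 for ORB_0511159, none past the threshold (adjusted p of 0.204, 0.137 and 0.124). That array also had 88 of 10336 spots flagged bad, against at most 2 in any other. Only 2 of the 88 were spots of the 170 probes, and spots flagged bad were left out of the averages. Whether those 2 lay in the set was not tested.

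**Figure D5:**
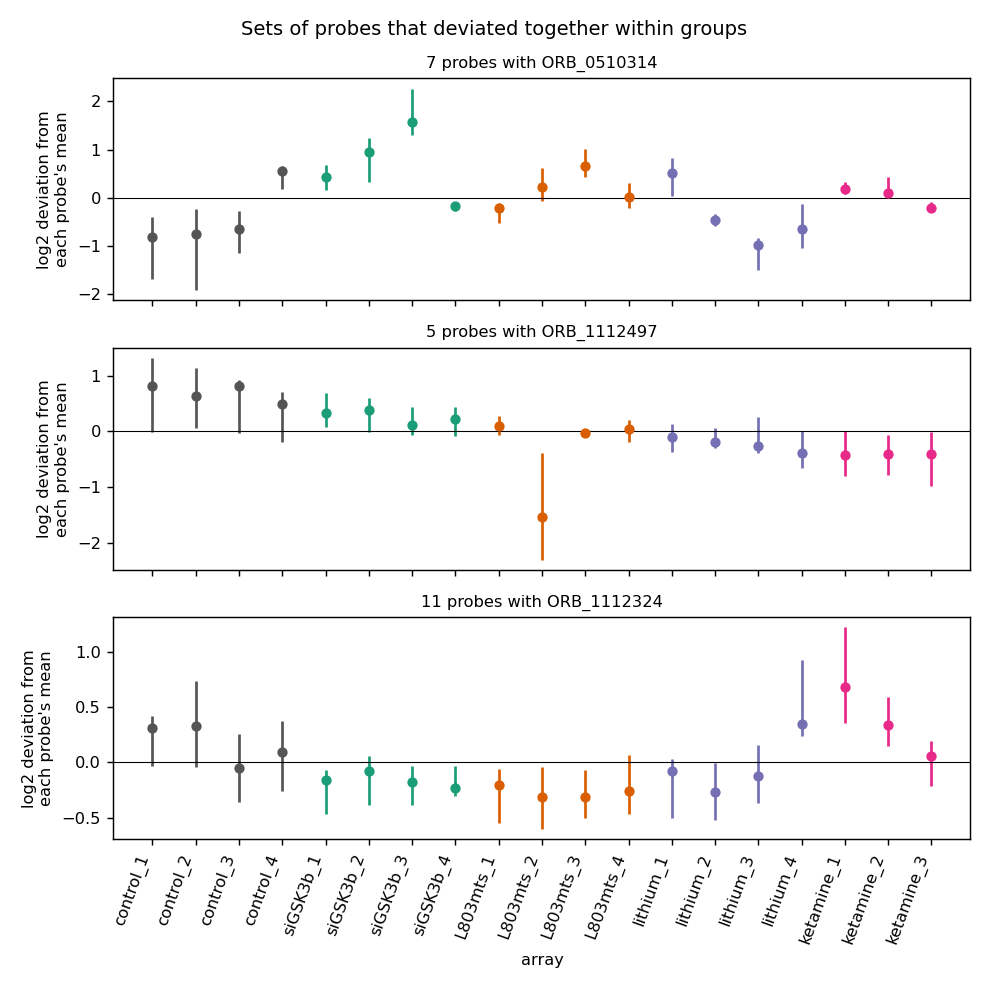
Log2 deviation from each probe's mean over the 19 arrays, as the median (point) and range (line) over the probes of 3 sets, with arrays along the axis and groups in colour. The first set was high in siGSK3b replicate 3 (1.56), the second low in L803mts replicate 2 (-1.54) and the third high in ketamine replicate 1 (0.68).

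Other bright probes on the same arrays served for comparison, the 80 ORB-coded probes of the authors' table and 96 number-coded probes outside it, with control means of 1000 or more. The median within-group SD was 0.152 over the 170 probes, 0.148 over the 80, 0.129 over the 96 and 0.114 over all probes tested. The SD between the 3 spots of a probe had a median of 0.0944 over the 170, 0.102 over the 80, 0.0806 over the 96 and 0.140 over all probes tested. A saturated spot on all 19 arrays was found for 10% of the 170, 0% of the 80 and 29.2% of the 96. Against control, calls in siGSK3b, L803mts, lithium and ketamine numbered 0, 5, 3 and 4 of the 80 and 0, 7, 5 and 8 of the 96, beside 3, 20, 10 and 17 of the 170. Whether these shares differ was not tested. By the number that opens the ID field of a probe, taken here as its source plate, the 170 made up 27.3% of the 33 ORB-coded probes outside the table on plate 4 (9 probes), and 3.12% to 11.5% on each of the other plates. By block they made up 5.83% in block 2 to 13.04% in block 3.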

How the data were processed

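Per the file headers, the authors deposited GenePix intensities of 1 channel (532 nm) on a linear scale, not normalized, with 4 arrays per slide, and each sample's own 8 blocks were used. The authors' table of processed intensity values served only to list its probes. The sources used here do not give how the authors normalized that table. Background was corrected with normexp (offset 50) in limma 3.58.1 under R 4.3.3, with files read by the data.table package (version 1.17.8). Values were taken to log2, averaged over a probe's spots without those flagged bad, and quantile normalized. Of 3432 probes, 3421 passed a filter (mean foreground over background above 2 background SDs on at least 3 arrays), the 170 described here included. The background SD came from each array's local background medians, since the files give none per spot. The 40 control and empty spots per array were left out. Group means over all 19 arrays were fitted with limma and its empirical Bayes step. P-values are two-sided and Benjamini-Hochberg adjusted over the 3421 probes within each comparison, and every adjusted p printed is from limma. The number of arrays limits the precision. The limma fit was tested on simulated normalized log2 values with known changes, and the steps before it were not.

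Probes were named by rule, as the 5 brightest, the called probes with the 5 largest rises and 5 largest falls per comparison whose arrays all lay on the called side, the 5 with the widest range of group means, the 5 with the smallest SD, the 3 on each side of the limit, and those saturated throughout a group. Other called probes, the covarying sets, the least variable probes without saturation and the slide-order counts were chosen after their values were seen. The 170 probes and all lists were chosen with earlier results of these data known. Alternatives were another scaling, plain background subtraction, no filter, other treatment of flagged or saturated spots, another moderation, separate fits, slide, position and replicate terms, and leaving out each array.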

Additional observations from a re-analysis of the deposited data

Results flagged for a closer look

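In 120 checks of the named probes in the 4 groups of 4 arrays, 8 had 1 array far from the other 3 (a gap to the nearest other array above Dixon's critical share of the group's range), where chance alone gives about 1 in 20, or 6. Of these, 2 were in L803mts replicate 2, where ORB_1112497 had a log2 intensity of 8.20 against 10.47 to 10.54 in the other 3 and ORB__0908013 had 8.55 against 9.30 to 9.35. In L803mts replicate 1, ORB_0511210 had 12.12 against 12.42 to 12.47 and ORB_1112102 had 12.76 against 12.59 in the others. In lithium, ORB_0511082 had 12.45 in replicate 3 against 12.26 to 12.28, and ORB_0511179 had 12.60 in replicate 4 against 11.59 to 11.71. In control, ORB_1112468 had 13.82 in replicate 2 against 13.51 to 13.55, and ORB_0511371 had 12.89 in replicate 1 against 13.31 to 13.40.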

How the results depend on the processing

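The counts of called probes moved with most settings in at least 1 comparison. Of 143 counts under other settings, 97 stayed within 1.5 times the reported count and 46 did not. The cause was not tested, except that the restriction to brighter probes leaves fewer probes and a fit of only the groups compared leaves fewer arrays. For siGSK3b against control the count was 3 as reported, 5 with cyclic loess, 8 in a fit of only the groups compared, 1 with median scaling, with not-found spots left out or with array position as a block, and 0 with plain background subtraction or with trend and robust moderation. For L803mts it was 20 as reported, 10 with only the groups compared, and 1 with not-found spots left out or with the slide serial number as a covariate. For lithium it was 10, or 6 among probes with a control mean of 2000 or more. For ketamine it was 17, or 11 with median scaling, 11 among probes of 2000 or more, 10 without not-found spots and 9 with the serial number. Lithium against siGSK3b gave 0, or 1 with cyclic loess, 4 without not-found spots and 3 with only the groups compared, and lithium against L803mts gave 0, or 2 without not-found spots. Ketamine against siGSK3b gave 1, or 4 with cyclic loess or without not-found spots, 9 with only the groups compared or with trend and robust moderation, 6 without saturated spots, and 0 with plain subtraction or slide as a random block. Ketamine against L803mts gave 10, or 6 with cyclic loess, 5 with array position or slide as a block, 3 without not-found spots, 2 with plain subtraction, 1 with median scaling and 0 with only the groups compared. Ketamine against lithium gave 7, or 12 with trend and robust moderation, 3 with array position as a block, 2 with median scaling, 1 with plain subtraction or slide as a random block, and 0 without not-found spots or with only the groups compared. The F test over treated groups gave 2, or 17 with trend and robust moderation, 1 with cyclic loess, median scaling or plain subtraction, and 0 with array position as a block. Leaving out the filter changed no count.

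Leaving out 1 array at a time gave 0 to 6 calls for siGSK3b against control, 12 to 22 for L803mts, 7 to 13 for lithium and 10 to 22 for ketamine. It gave 0 to 8 for ketamine against siGSK3b, 0 to 14 against L803mts, 0 to 15 against lithium and 0 to 13 for the F test, and 0 throughout in the other 3 pairs of treatments. The lowest counts of siGSK3b, L803mts and lithium against control were reached without control replicate 2 (for siGSK3b and lithium also without other arrays), and the lowest of ketamine without ketamine replicate 1. Without ketamine replicate 3 ketamine against siGSK3b gave 8. Without L803mts replicate 2 the F test gave 13 and ketamine against L803mts 14, and without lithium replicate 4 ketamine against lithium gave 15. Among named calls against control of probes with a control mean of 2000 or more, those of ORB_1210051 in lithium (1 of 5) and of ORB_1210051 and ORB_1008009 in ketamine (2 of 6) held in all these fits and settings, and 0 of 6 in L803mts and 0 of 2 in siGSK3b did. Between treatments 0 of 1 named call held for ketamine against siGSK3b, 0 of 8 against L803mts and 0 of 6 against lithium. The lithium difference of ORB_0511338, which was not called, went from 0.36 to -0.048 without lithium replicate 1 and ran up to 0.784 in the other such fits.

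Groups share replicate numbers, which also follow the position of the array on its slide, except for L803mts replicate 2, and no label ties them to shared mice. Deviations of same-numbered arrays correlated at -0.41 to 0.35 over 36 pairs (median -0.023), and 6 of 19 arrays correlated best with their own number. With the replicate block, ketamine against lithium gave 2 calls in place of 7, and the other counts were 3, 20, 10, 15, 0, 0, 1, 0, 8 and 3 for siGSK3b, L803mts, lithium and ketamine against control, L803mts, lithium and ketamine against siGSK3b, lithium and ketamine against L803mts, and the F test. The 170 probes had 0 not-found spots on the 19 arrays, so the changes seen when such spots were left out came through the other probes' part in the normalization and the fit. Saturation limited 22 probes.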
